A study of Rattus norvegicus with 6 samples.

Results

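The Toll-like receptors and the proteins that serve them were followed here as 10 listed genes, taken by symbol from the Name column of the deposited table: the receptors Tlr2, Tlr3, Tlr4, Tlr7, Tlr8 and Tlr9, the lipopolysaccharide co-receptors Cd14 and Ly96, and the cytosolic adaptors Myd88 and Tirap. Of these, 9 had a row among the 22250 genes of the table, and Ly96 was not matched by name and is not analysed here. All 9 passed the filter on low counts, together with 13784 genes in all. RNA-Seq was performed on left ventricular myocardium of 6 transplanted Sprague-Dawley rat hearts, 3 from young donors (10 weeks, libraries WT3, WT13 and WT15) and 3 from aged donors (1 year, libraries OT3, OT4 and OT7). Each library is named here by its label, in which "WT" and "OT" stand for young and aged donors, since the genotype given for both groups is WT. All 6 hearts had been stored cold in University of Wisconsin solution, transplanted heterotopically into young recipients and taken on postoperative day 1, so no heart without transplantation was included. A heterotopic graft is perfused but does not carry the recipient's circulation, and RNA of donor tissue and of recipient cells that entered it was measured together. Replicates were separate hearts, and p-values measure the spread among these 6.

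Toll-like receptors recognize microbial products and molecules released from injured cells. Tlr2 and Tlr4 act at the cell surface, whereas Tlr3, Tlr7, Tlr8 and Tlr9 recognize nucleic acids in endosomes. Every one of these receptors except Tlr3 signals through the adaptor Myd88, which recruits IRAK kinases and leads to NF-kB and AP-1 activity. Tirap bridges Tlr2 and Tlr4 to Myd88, and Tlr3 uses the adaptor TRIF instead. In tissue, macrophages, monocytes and neutrophils carry much of the Tlr2, Tlr4, Tlr8 and Cd14 transcript, while Tlr3 is also made by endothelial cells, fibroblasts and muscle.

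Promoter windows are printed for Tlr2, Myd88 and Tlr8, which are among the 6 members for which every aged donor heart lay above every young one. The window of Tlr3, for which every aged heart lay below, is set beside them. Tlr4, Tlr7 and Cd14 also had every aged heart above every young one, and for them only the matches are given. For each of the 9 genes the 250 bases before a RefSeq transcription start were read on the GRCr8 build and searched on both strands for the NF-kB consensus, the PU.1 core GAGGAAG, the interferon regulatory element GAAANNGAA, the AP-1 site TGANTCA and the CEBP element TTNNGCAA. Matches are in capitals below, all sequences run 5′ to 3′ towards the start, and none of the matches to one motif overlapped a match to another. The windows are Tlr2 at chr2:171504558-171504807 (minus strand), Myd88 at chr8:127956231-127956480 (minus strand), Tlr8 at chrX:30708476-30708725 (plus strand) and Tlr3 at chr16:53554666-53554915 (plus strand).
Tlr2: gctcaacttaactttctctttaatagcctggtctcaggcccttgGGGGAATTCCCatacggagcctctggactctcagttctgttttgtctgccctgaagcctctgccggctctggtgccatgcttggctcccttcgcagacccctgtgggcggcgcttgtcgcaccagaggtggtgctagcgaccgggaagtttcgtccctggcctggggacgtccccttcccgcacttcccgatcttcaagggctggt
Myd88: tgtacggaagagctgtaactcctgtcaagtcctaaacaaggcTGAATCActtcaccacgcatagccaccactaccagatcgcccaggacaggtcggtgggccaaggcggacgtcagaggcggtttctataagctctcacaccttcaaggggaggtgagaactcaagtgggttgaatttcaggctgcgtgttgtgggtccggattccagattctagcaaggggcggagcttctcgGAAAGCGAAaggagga
Tlr8: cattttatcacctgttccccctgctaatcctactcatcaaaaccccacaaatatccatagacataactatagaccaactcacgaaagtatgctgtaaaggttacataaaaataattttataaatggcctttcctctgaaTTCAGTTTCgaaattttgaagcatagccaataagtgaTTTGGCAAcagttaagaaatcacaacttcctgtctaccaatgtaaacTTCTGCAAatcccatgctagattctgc
Tlr3: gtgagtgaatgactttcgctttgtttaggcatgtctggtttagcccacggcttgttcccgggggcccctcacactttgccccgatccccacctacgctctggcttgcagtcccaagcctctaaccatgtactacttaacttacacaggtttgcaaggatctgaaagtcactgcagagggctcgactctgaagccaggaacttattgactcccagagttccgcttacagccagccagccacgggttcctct

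The Tlr2 window held the NF-kB consensus 206 to 196 bases before the start, as overlapping matches, a motif found in 3.54% of all 33469 promoter windows of the same length. The Myd88 window held the interferon regulatory element 16 to 8 bases before the start and an AP-1 site 208 to 202 bases before it, motifs found in 8.12% and 6.34% of windows. The Tlr8 window held the interferon regulatory element on the opposite strand 111 to 103 bases before the start and the CEBP element 2 times, the latter found in 9.22% of windows. Among the windows not printed, those of Tlr4, Tlr9 and Cd14 held the PU.1 core, which 10.2% of windows held, and Cd14 held it 2 times. Tlr9, whose groups overlapped, also held an AP-1 site, and Tlr7 held a CEBP element. None of the 5 motifs was found in the window of Tlr3 or in either window of Tirap. These matches describe letters in the windows and not bound sites, and their relation to the direction of a gene was not tested.

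Before the genes are compared, 2 libraries need mention. Library totals lay between 21457509 and 24560869 reads. WT15 lay apart from the other young hearts: the summed CPM (read counts scaled to the library size, here corrected by TMM) of 4 genes made by all leukocytes, Ptprc, Itgb2, Laptm5 and Cd53, were 76.05 in WT3, 67.7 in WT13 and 566 in WT15, against 1599 in OT3, 915 in OT4 and 865 in OT7. The 10 cardiomyocyte markers in the table summed to 84480 CPM in WT3, 93660 in WT13 and 13090 in WT15, and to 7757 in OT4, 8196 in OT7 and 181 in OT3, so the defining markers of the labelled tissue were nearly absent from OT3. Results are therefore given with all 6 hearts and without WT15 or OT3 where these decide them. Without WT15 edgeR gave 48.3% of the 14109 genes tested an adjusted p under 0.05, and 26.9% were higher and 24.2% lower past the limits, so the small adjusted p-values printed below without WT15 are not particular to the members. In these bulk samples, more cells of a type and more RNA per cell cannot be told apart.

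To learn whether donor age went with the level of these genes after cold storage and transplantation, the groups of 3 aged and 3 young hearts were set against each other. The limits of the study were used, namely an unadjusted p under 0.05 together with a fold change of more than 1.5 or less than 0.67. Past them were 4 of the 9 measured genes: Tlr4, Tlr8 and Myd88 were higher in aged donor hearts and Tlr3 was lower. By the same limits 13.2% of all genes tested were higher and 19.0% lower. In 6 of the 9 genes (Tlr2, Tlr4, Tlr7, Tlr8, Cd14 and Myd88) every aged donor heart lay above every young one, as was so for 21.0% of all genes tested, and in Tlr3 every aged heart lay below, as for 20.6%. The median log2 fold change of the 9 genes was 1.66 (range -0.77 to 2.49), against 0.02 over all genes tested. With edgeR's quasi-likelihood test, 0 of the 9 and 0 of all 13784 genes had a Benjamini-Hochberg adjusted p under 0.05, whereas 4 and 4731 had an unadjusted p under 0.05. With DESeq2, 5 of the 9 genes had an adjusted p under 0.05, as did 23.3% of all genes with an adjusted p, and with limma-voom with quality weights 7 of the 9 did, as did 61.1% of all genes. The exact permutation test on 3 against 3 hearts cannot go below 0.1, and it gave 0.1 for each of the 7 genes whose groups did not overlap.

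**Figure D1:**
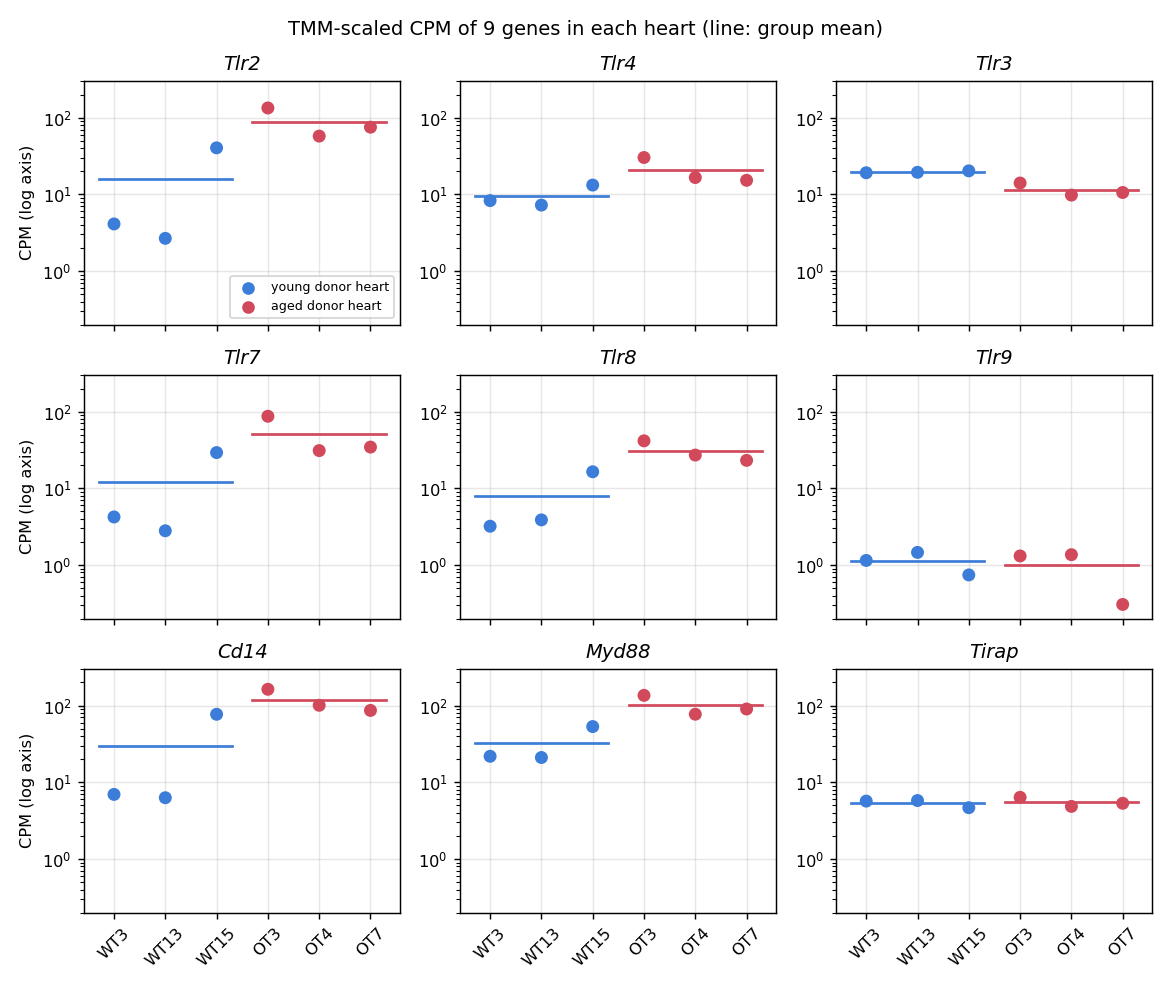
Level of 9 Toll-like receptor genes in each heart as TMM-scaled CPM on a log axis shared by all panels; blue points are young and red points aged donor hearts, and lines are group means. In Tlr2, Tlr7, Tlr8 and Cd14 the young heart WT15 lies near the aged hearts, while Tlr3 is lower in all 3 aged hearts and the groups overlap in Tlr9 and Tirap.

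Among the surface receptors, Tlr4 passed the limits and Tlr2, whose mean differed more, did not. Tlr2 (ENSRNOG00000009822, Rnor_6.0 chromosome 2, 182840727 to 182846061), which recognizes bacterial lipopeptides together with Tlr1 or Tlr6, measured 4.11 CPM in WT3, 2.67 in WT13 and 40.4 in WT15, and 134 in OT3, 57.5 in OT4 and 75.1 in OT7. The lowest aged heart lay above the highest young heart, but WT15 was far closer to the aged hearts than to WT3 and WT13. The means were 15.7 ± 21.4 CPM (SD, n = 3) for the young and 88.8 ± 39.9 CPM for the aged group, a 5.61-fold difference (log2 fold change 2.49, SE 1.06) that missed the limits in edgeR's quasi-likelihood test (edgeR Benjamini-Hochberg adjusted p = 0.153). Without WT15 the log2 fold change of Tlr2 was 4.75 (SE 0.50, edgeR adjusted p = 0.00177), and without OT3 it was 2.07 and not past the limits.

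Tlr4 (ENSRNOG00000010522, chromosome 5, 82587420 to 82601052), the lipopolysaccharide receptor, measured 8.29, 7.25 and 13.2 CPM in WT3, WT13 and WT15, and 30.2, 16.6 and 15.3 CPM in OT3, OT4 and OT7. The groups did not overlap, although WT15 and OT7 lay close together. Tlr4 rose from 9.58 ± 3.19 to 20.7 ± 8.29 CPM, which is 2.15-fold (log2 fold change 1.11, SE 0.38, edgeR Benjamini-Hochberg adjusted p = 0.108). The call rested on several hearts, since it was lost without WT3, WT13 or OT3, the log2 fold change being lowest (0.73) without OT3. In length-scaled units, Tlr2 was below Tlr4 in WT3 and WT13 (FPKM ratios of 0.64 and 0.475) and above it in WT15 (3.94), OT3 (5.70), OT4 (4.47) and OT7 (6.35).

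Cd14 (ENSRNOG00000017819, chromosome 18, 29560365 to 29562153), which hands lipopolysaccharide to the receptor complex of Tlr4, measured 6.96 CPM in WT3, 6.30 in WT13 and 77.0 in WT15, and 163, 100.9 and 86.5 CPM in OT3, OT4 and OT7. WT15 lay below the lowest aged heart but far above WT3 and WT13. The means of 30.1 ± 40.7 and 117 ± 40.7 CPM differed 3.87-fold (log2 fold change 1.95, SE 1.02), which missed the limits in edgeR's test (edgeR Benjamini-Hochberg adjusted p = 0.209). The log2 fold change was 4.18 without WT15 (SE 0.36, edgeR adjusted p = 0.00131) and 1.64 without OT3, where it was not past the limits. Of the members it was the most abundant per length in the mean of both groups.

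The endosomal receptors did not move as a group, as Tlr8 rose, Tlr3 fell, and the groups overlapped in Tlr9. Tlr7 missed the limits in edgeR's test, but its log2 fold change (2.06) was no smaller than that of Tlr8 (1.96). It was higher past the limits in DESeq2 and limma-voom, so Tlr7 and Tlr8 are not shown to differ. Tlr7 and Tlr8, both sensors of single-stranded RNA, lie next to each other on the X chromosome in the same orientation, with 26200 bases between the end of Tlr7 (ENSRNOG00000004249, 28486869 to 28512957) and the start of Tlr8 (ENSRNOG00000045992, 28539158 to 28562803). Tlr8 measured 3.21, 3.88 and 16.4 CPM in WT3, WT13 and WT15 and 41.6, 27.1 and 23.1 CPM in OT3, OT4 and OT7. It rose from 7.84 ± 7.45 to 30.6 ± 9.72 CPM, 3.88-fold (log2 fold change 1.96, SE 0.68, edgeR Benjamini-Hochberg adjusted p = 0.112). The log2 fold change of Tlr8 was 3.15 without WT15 (edgeR adjusted p = 0.00182). The call was lost without WT3, WT13, OT3 or OT4, with log2 fold changes of 1.58, 1.63, 1.68 and 2.04.

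Tlr7 measured 4.24, 2.80 and 29.2 CPM in WT3, WT13 and WT15 and 87.0, 31.1 and 34.5 CPM in OT3, OT4 and OT7. WT15 lay within a few CPM of OT4, and OT3 stood above all other hearts. Tlr7 averaged 12.1 ± 14.9 CPM in the young and 50.9 ± 31.4 CPM in the aged group (log2 fold change 2.06, SE 0.96, edgeR Benjamini-Hochberg adjusted p = 0.175). Without WT15 its log2 fold change was 3.89 (edgeR adjusted p = 0.00475), and without OT3 it was 1.43 and not past the limits. The ratio of Tlr7 FPKM to Tlr8 FPKM was 0.57 to 1.40 in the young hearts and 0.903 to 1.65 in the aged, so the ratios of the groups overlapped.

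Tlr3 (ENSRNOG00000021726, chromosome 16, 50016857 to 50031214), the sensor of double-stranded RNA, was the only measured member that was lower in aged donor hearts past the limits. It measured 19.1 CPM in WT3, 19.4 in WT13 and 20.2 in WT15, and 14.1, 9.78 and 10.6 CPM in OT3, OT4 and OT7. Here WT15 lay with the other young hearts, and the young hearts differed little among themselves. Tlr3 fell from 19.6 ± 0.584 to 11.5 ± 2.27 CPM, to 0.586 of the young mean (log2 fold change -0.77, SE 0.21, edgeR Benjamini-Hochberg adjusted p = 0.0923). The fall stayed past the limits whichever heart was left out, with log2 fold changes between -0.94 and -0.66. It depended on the scaling of the libraries: with library totals in place of TMM the log2 fold change was -0.32, no longer past the limits, while the median of all genes moved from 0.02 to 0.46, and relative to that median Tlr3 differed by -0.78. As raw reads, Tlr3 had 316, 305 and 490 in the young and 428, 258 and 276 in the aged libraries, which overlap.

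Tlr9 (ENSRNOG00000048161, chromosome 8, 114916122 to 114920171), the sensor of unmethylated CpG DNA, was near the floor of the measurement, with 19, 23 and 18 reads in WT3, WT13 and WT15 and 40, 36 and 8 reads in OT3, OT4 and OT7. Its means of 1.12 ± 0.361 and 0.995 ± 0.597 CPM overlapped (log2 fold change -0.16, SE 0.62, exact permutation p = 0.8). No direction can be read for Tlr9, since the log2 fold change was 0.27 without OT7 and 0.35 with library totals.

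Of the adaptors, Myd88 rose and Tirap did not pass the limits. Myd88 (ENSRNOG00000013634, chromosome 8, 128022473 to 128026841) measured 21.8, 21.1 and 53.3 CPM in WT3, WT13 and WT15 and 136, 77.2 and 90.3 CPM in OT3, OT4 and OT7. Every aged heart exceeded every young one, with WT15 between the other young hearts and the aged. Myd88 rose 3.15-fold, from 32.1 ± 18.4 to 101.1 ± 30.8 CPM (log2 fold change 1.66, SE 0.44, edgeR Benjamini-Hochberg adjusted p = 0.0916). It stayed past the limits whichever heart was left out, with log2 fold changes between 1.39 (without OT3) and 2.28 (without WT15, edgeR adjusted p = 0.00276).

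Tirap (ENSRNOG00000021420, chromosome 8, 36385353 to 36388224), the bridging adaptor of Tlr2 and Tlr4, stood at 5.69, 5.79 and 4.67 CPM in WT3, WT13 and WT15 and at 6.37, 4.85 and 5.33 CPM in OT3, OT4 and OT7. The groups overlapped and their means were 5.38 ± 0.619 and 5.52 ± 0.777 CPM (log2 fold change 0.04, SE 0.25, exact permutation p = 0.9). With library totals the log2 fold change of Tirap was 0.51, not past the limits, and relative to the median of all genes it was 0.06. WT15 was the lowest of the 6 hearts in Tirap, whereas in Myd88 it was the highest of the young hearts.

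**Figure D2:**
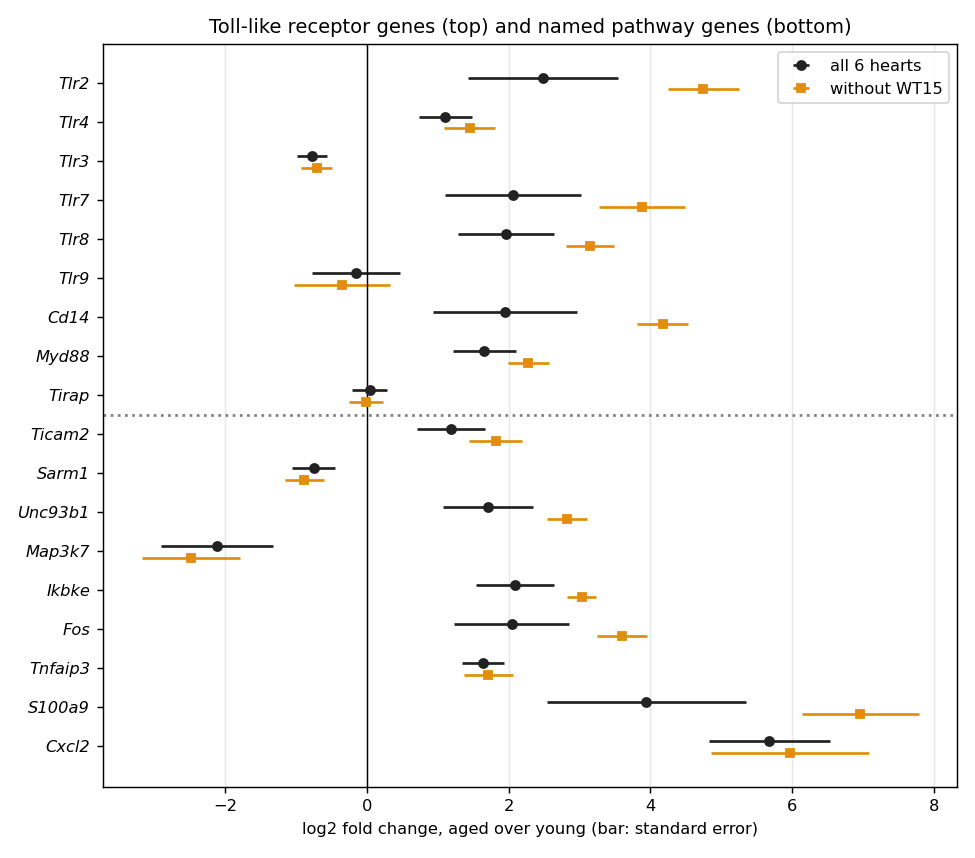
Log2 fold change of aged over young donor hearts from edgeR for the 9 members (above the dotted line) and the pathway genes named by rule (below it), with all 6 hearts (black circles) and without WT15 (orange squares); bars are standard errors. Leaving out WT15 moves Tlr2 from 2.49 to 4.75 and Cd14 from 1.95 to 4.18 but leaves Tlr3 at -0.71 and Tirap at -0.02.

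Levels of different genes were compared by the deposited FPKM, which are read counts scaled by gene length and library total. In aged donor hearts the mean levels ran from Cd14 (81.8 ± 32.6 FPKM) over Myd88 (48.9 ± 17.4), Tlr2 (40.9 ± 20.4), Tlr7 (14.2 ± 9.50), Tlr8 (10.8 ± 3.94), Tirap (8.66 ± 1.65), Tlr4 (7.37 ± 3.33) and Tlr3 (3.04 ± 0.757) to Tlr9 (0.362 ± 0.219). Among neighbours in that order, the ranges over the 3 hearts were separate only for Tlr4 above Tlr3 and for Tlr3 above Tlr9. Within single hearts, however, Cd14 was above Myd88, Myd88 above Tlr2 and Tlr2 above Tlr7 in 3 of 3 aged donor hearts.

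In young donor hearts the mean order was Cd14 (18.4 ± 26.8 FPKM), Myd88 (12.2 ± 9.82), Tlr2 (6.30 ± 9.21), Tirap (6.06 ± 0.592), Tlr3 (3.80 ± 0.974), Tlr7 (2.89 ± 3.93), Tlr4 (2.60 ± 1.48), Tlr8 (2.29 ± 2.60) and Tlr9 (0.284 ± 0.0417). Only Tirap above Tlr3 and Tlr8 above Tlr9 had separate ranges. The young means of Cd14 and Tlr2 are carried by WT15: without it Cd14 averaged 2.94 FPKM and Tlr2 0.988 FPKM. Cd14 was above Myd88 in 1 of 3 young donor hearts, and Tlr2 above Tirap in 1 of 3. Tirap and Tlr3 thus stood among the more abundant members in WT3 and WT13 and among the less abundant in the aged donor hearts.

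The make-up of the group was described after the single values had been seen. The 9 genes summed to 24.0 FPKM in WT3, 21.8 in WT13 and 119 in WT15, and to 318, 161 and 169 FPKM in OT3, OT4 and OT7. Myd88 and Tirap, the adaptors, made up 28.5% and 24.2% of the sum in WT3 and 28.8% and 25.8% in WT13. In the aged donor hearts Myd88 held 21.6% to 25.2% and Tirap 3.30% to 4.86%. The smaller share of Tirap went with a larger sum and not with lower FPKM of its own. Tirap had 5.82, 5.63 and 6.74 FPKM in WT3, WT13 and WT15 and 10.5, 7.29 and 8.20 in OT3, OT4 and OT7. Its FPKM rest on a length of 753 bases, the shortest among the members. Cd14 made up 13.1% and 12.5% in WT3 and WT13, 41.5% in WT15 and 35.0% to 41.8% in aged donor hearts. Tlr3 made up 13.7% and 14.6% in WT3 and WT13, 4.14% in WT15 and 1.22% to 1.62% in the aged hearts. With 5.67% for Tirap, the shares in WT15 thus lay nearer to those of the aged donor hearts than to those of WT3 and WT13 for Cd14, Tirap and Tlr3.

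**Figure D3:**
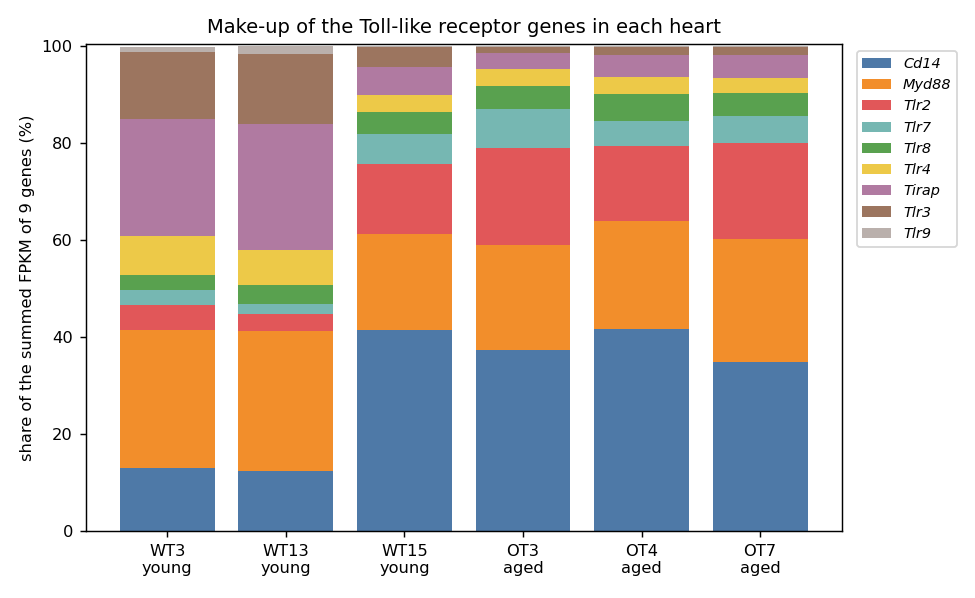
Share of each gene in the summed FPKM of the 9 Toll-like receptor genes, in percent, for each heart. Tlr3 and Tirap take 13.7% and 24.2% in WT3 but at most 1.62% and 4.86% in the aged donor hearts, where Cd14 takes 35.0% or more.

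Markers of white blood cells also differed between the groups. As background for the counts by tool given from here on, DESeq2 put 2222 of 17550 genes higher and 3138 lower past the limits. In limma-voom 3689 of 13784 genes were higher and 3815 lower. The 12 neutrophil markers, among them Csf3r, Cxcr2 and Mmp8, summed to 14.4, 15.1 and 88.4 CPM in WT3, WT13 and WT15 and to 896, 247 and 541 CPM in OT3, OT4 and OT7. Cxcr1 was at 0 in every heart. Mpo (2, 0 and 0 young and 3, 0 and 0 aged reads) and Ngp (5, 6 and 6 against 11, 7 and 3) did not pass the filter. Of the 9 tested, 7 were higher in aged donor hearts past the limits in edgeR, and 9 in DESeq2 and in limma-voom. Some of these, such as Camp (0, 0 and 4 young reads) and Cxcr2 (8, 7 and 170), passed the filter only with the aged hearts. For such genes a call of higher was favoured in advance. The 12 macrophage markers, among them Cd68, Csf1r and C1qa, summed to 409, 379 and 2454 CPM in WT3, WT13 and WT15 and to 7385, 4427 and 3854 CPM in OT3, OT4 and OT7, and 6 of the 11 tested were higher past the limits in edgeR, and 9 in DESeq2 and in limma-voom. Cd68, Csf1r and C1qa were not among the 6 in edgeR. Much of the sum was Lyz2, itself not past the limits in edgeR, with 87.6, 81.6 and 1406 CPM in WT3, WT13 and WT15 and 4753, 2696 and 2708 CPM in OT3, OT4 and OT7. WT15 was thus the highest young heart in both lists as it was in Tlr2, Tlr4, Tlr7, Tlr8, Cd14 and Myd88. It was also the highest young heart in Tlr3, by little (20.2 CPM against 19.1 and 19.4). OT3 was the highest aged donor heart in Tlr2, Tlr4, Tlr7, Tlr8, Cd14 and Myd88 and in both sums. OT3 was also the highest in Tlr3 (14.1 CPM), which was lower in aged donor hearts, and in Tirap (6.37 CPM), whose groups overlapped. The place of OT3 is thus not particular to the genes that were higher. OT7 lay above OT4 in Tlr2, Tlr7, Myd88 and the neutrophil sum, and below it in Tlr4, Tlr8, Cd14 and the macrophage sum. These orders differ only in OT4 against OT7 and assign no gene to a cell type. The part of these cells in the differences was not tested.

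Other cell lists stood as follows. T cell markers summed to 5.87 to 7.99 CPM in young and 11.2 to 16.4 CPM in aged donor hearts, with 2 of the 4 tested higher past the limits in edgeR and DESeq2 and 1 in limma-voom. The 7 markers of B cells and plasmacytoid dendritic cells, which are known for Tlr7 and Tlr9, ranged from 59.1 to 79.1 and from 54.0 to 108 CPM, with 0 of the 6 tested past the limits in edgeR or DESeq2 and 2 in limma-voom. Most of that sum was Bst2 alone, at 55.5 to 76.2 CPM in young and 47.5 to 105 CPM in aged donor hearts. The other tested markers of that list averaged at most 1.55 CPM in either group, so the sum says little of the level of these cells. Endothelial markers ranged from 1090 to 1566 CPM in young and from 875 to 1368 CPM in aged donor hearts, with 0 of the 6 tested past the limits in edgeR or DESeq2 and 2, both lower, in limma-voom. Fibroblast markers ranged from 2519 to 3819 CPM in young and from 938 to 2140 CPM in aged donor hearts, with 1 of the 5 tested lower in edgeR and DESeq2, and 3 lower and 1 higher in limma-voom. Of the cardiomyocyte markers, 4 of the 10 tested were lower past the limits in edgeR, and 9 were in DESeq2 and in limma-voom. Their part in the fall of Tlr3 was not tested.

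Set against the 4 pan-leukocyte genes, no member had every aged donor heart above every young one. The ratio was described after the single values had been seen. Cd14 stood at 9.15, 9.30 and 13.6 CPM per 100 CPM of these genes in WT3, WT13 and WT15 and at 10.2, 11 and 10 in OT3, OT4 and OT7. The aged and young mean log2 values of this ratio differed by -0.01 for Cd14 (exact permutation p = 1) and by -0.23 for Tlr7 (exact permutation p = 0.4). For Tlr2 the ratio ranged from 3.95 to 7.14 in the young hearts and from 6.28 to 8.68 in the aged (difference 0.53 on the log2 scale, exact permutation p = 0.2). For Tlr4 it was 10.9, 10.7 and 2.34 in WT3, WT13 and WT15 against 1.76 to 1.89 in aged donor hearts, and for Myd88 it was 28.7, 31.1 and 9.41 against 8.44 to 10.4. Tlr4 and Myd88, which were higher in CPM in aged donor hearts, were thus not higher on this ratio (log2 differences of -1.83 with an exact permutation p of 0.1 and -1.16 with 0.2). For Tlr3 the ratio was 25.1, 28.7 and 3.58 in WT3, WT13 and WT15 and 0.879, 1.07 and 1.22 in OT3, OT4 and OT7. The log2 differences of the ratio were -3.71 for Tlr3 and -2.89 for Tirap, each with an exact permutation p of 0.1, and -3.32 for Tlr9 and -0.59 for Tlr8, each with 0.2. The pan-leukocyte genes differed between the groups themselves, 2 of the 4 being higher past the limits in edgeR and 4 in DESeq2 and in limma-voom, so the ratio divides one changing quantity by another.

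**Figure D4:**
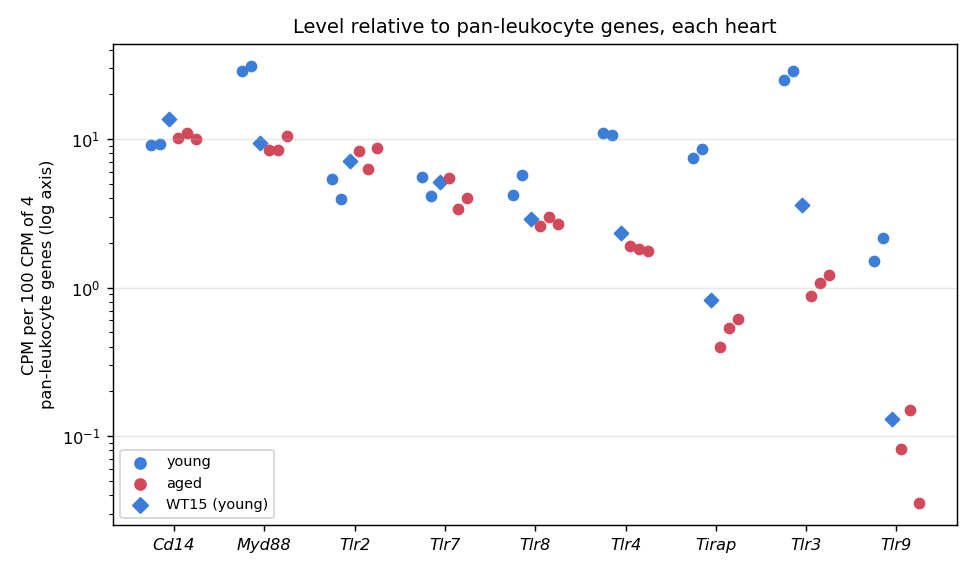
CPM of each gene per 100 CPM of 4 pan-leukocyte genes in each heart, on a log axis; blue are young donor hearts, with WT15 as a diamond, and red are aged donor hearts. Cd14 lies between 9.15 and 13.6 in all 6 hearts, while Tlr3 runs from 28.7 in WT13 to 0.879 in OT3.

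A ratio of reads within one library is free of the scaling. Tlr3 was taken as the denominator after it had been seen to be the member that was lower, so these ratios restate the values above without the scaling and carry no test. Relative to Tlr3, the mean log2 ratio of reads was higher in aged donor hearts by 4.23 for Tlr2, 3.69 for Cd14, 3.47 for Tlr7, 3.11 for Tlr8, 2.55 for Myd88 and 1.87 for Tlr4. For Tirap the difference was 0.82, with log2 ratios of -1.74, -1.74 and -2.11 in WT3, WT13 and WT15 and of -1.14, -1.01 and -0.99 in OT3, OT4 and OT7. For Tlr9 it was 0.40.

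The rest of the pathway was described by a list of 77 genes ordered by role, of which 72 were in the table and 68 were tested. Of these, 22 were higher and 2 lower past the limits, against 13.2% and 19.0% of all genes tested, and 0 had an adjusted p under 0.05 in edgeR's quasi-likelihood test. By DESeq2, 20 of 69 pathway genes had an adjusted p under 0.05, against 23.3% of all genes, and by limma-voom 48 of 68, against 61.1%. With library totals in place of TMM, 31 pathway genes were higher and 0 lower past the limits in edgeR, where 3147 of all genes were higher and 1441 lower. The median log2 fold change was 0.60, against 0.02 over all genes tested. The table itself assigns 88 genes to the KEGG pathway of Toll-like receptor signaling, among them all 9 members. Of the other 79, 69 were tested, and 16 were higher and 6 lower past the limits, against the same 13.2% and 19.0%. Their median log2 fold change was 0.40. The counts by role given next stand against these shares as well.

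Of the other receptors, 0 of the 5 tested passed the limits in edgeR's test, in either direction, or had an unadjusted p under 0.05. Tlr1 and Tlr6, the partners of Tlr2, are named here after their values were seen. Tlr1 measured 0.847, 0.827 and 6.69 CPM in WT3, WT13 and WT15 and 21.3, 9.06 and 8.66 CPM in OT3, OT4 and OT7 (log2 fold change 2.20, SE 0.91, edgeR adjusted p = 0.146). Tlr6 measured 2.42, 1.84 and 9.71 CPM in the young and 24.2, 9.78 and 11.2 CPM in the aged donor hearts (log2 fold change 1.68, SE 0.72, edgeR adjusted p = 0.155). In both genes the groups did not overlap, and WT15 was the highest young heart, as in Cd14. Without WT15 the log2 fold changes were 3.99 for Tlr1 and 2.86 for Tlr6, both past the limits (edgeR adjusted p = 0.00383 and 0.00734). With all 6 hearts DESeq2 and limma-voom each put 2 of these other receptors past the limits, both higher. Tlr10 and Tlr13 were not matched by name and are not analysed here.

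Among the other adaptors 1 of the 3 tested was higher and 1 lower. Ticam2, which links Tlr4 to TRIF, rose from 4.62 ± 2.71 to 10.6 ± 3.40 CPM (log2 fold change 1.19, SE 0.48, edgeR adjusted p = 0.138), with OT4 (7.66 CPM) just below WT15 (7.68 CPM). Sarm1, an adaptor with NAD-cleaving activity that is known to restrain TRIF, fell from 4.04 ± 0.849 to 2.39 ± 0.285 CPM (log2 fold change -0.75, SE 0.30, edgeR adjusted p = 0.136). Both calls were lost without any single heart other than WT15, where log2 fold changes ranged from 0.90 (without WT3) to 1.38 (without OT4) for Ticam2 and from -0.81 (without OT7) to -0.65 (without OT3) for Sarm1. Without WT15 they were 1.82 for Ticam2 and -0.88 for Sarm1. The call of Sarm1 was also lost with library totals (-0.27, or -0.72 relative to the median of all genes) and when every gene with a read was kept (-0.73). Ticam1, which encodes TRIF, was not matched by name and is not analysed here.

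Of the accessory and trafficking proteins, 2 of the 7 tested were higher and 0 lower. Unc93b1, which carries the endosomal receptors out of the endoplasmic reticulum, measured 16.8, 17.3 and 73.5 CPM in WT3, WT13 and WT15 and 156, 103 and 93.4 CPM in OT3, OT4 and OT7. It rose 3.27-fold (log2 fold change 1.71, SE 0.64, edgeR adjusted p = 0.123), the call being held without WT15 (log2 fold change 2.82) and lost without any other heart (1.37 to 1.85). Cd36 was not matched by name and is not analysed here.

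Of the 17 kinases and ubiquitin ligases, 6 were higher and 1 lower. Ikbke, a kinase that activates interferon regulatory factors, measured 9.08, 8.14 and 30.9 CPM in the young and 81.7, 60.4 and 63.5 CPM in the aged donor hearts, a 4.26-fold rise (log2 fold change 2.09, SE 0.55, edgeR adjusted p = 0.0916) that held whichever heart was left out. Irak2 and Irak4, of the IRAK kinases, were also among the 6 and are named after their values were seen, with log2 fold changes of 1.74 (SE 0.42, edgeR adjusted p = 0.0916) and 1.45 (SE 0.40, edgeR adjusted p = 0.0923). Irak1, an IRAK kinase of the same list, was not past the limits (log2 fold change 0.30, SE 0.20, edgeR adjusted p = 0.305). Map3k7, which encodes TAK1, had 156, 28 and 36 reads in WT3, WT13 and WT15 and 35, 21 and 25 reads in OT3, OT4 and OT7 (log2 fold change -2.12, SE 0.79, edgeR adjusted p = 0.122). WT3 decides that value, since the log2 fold change was -0.75 without it and not past the limits. The call was also lost without OT3 (-2.25), OT4 (-1.99) or OT7 (-2.10), with library totals (-1.56) and with limma-voom (-2.31).

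Of the 7 transcription factors, 1 was higher and 0 were lower past the limits. Fos, a subunit of AP-1, rose 4.12-fold from 7.68 ± 8.71 to 31.9 ± 4.18 CPM (log2 fold change 2.04, SE 0.81, edgeR adjusted p = 0.135), and the call was lost without any heart but WT15 (log2 fold changes of 1.58 to 2.15), without which the log2 fold change was 3.61. Of the 12 negative regulators, 2 were higher and 0 lower. For both roles the part that was higher lay near the 13.2% of all genes tested, so the counts do not single out these roles. Tnfaip3, which encodes the ubiquitin-editing enzyme A20, measured 11.9, 11.8 and 12.8 CPM in WT3, WT13 and WT15 and 51.1, 24.0 and 38.1 CPM in OT3, OT4 and OT7. In Tnfaip3 WT15 lay with the other young hearts, unlike in Tlr2 or Cd14. It rose 3.11-fold (log2 fold change 1.64, SE 0.30, edgeR adjusted p = 0.0916), and the rise held whichever heart was left out.

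Of the endogenous ligands, 4 of the 8 tested were higher and 0 lower. S100a9, a calcium-binding protein of neutrophils and monocytes that acts on Tlr4, measured 2.36, 2.10 and 48.2 CPM in WT3, WT13 and WT15 and 472, 109 and 234 CPM in OT3, OT4 and OT7. It rose 15.4-fold (log2 fold change 3.95, SE 1.40, edgeR adjusted p = 0.115), with 6.96 on the log2 scale without WT15, and the call was lost without WT3 (3.43), OT3 (3.28) or OT7 (4.05). Among the aged donor hearts S100a9 was highest in OT3, as were the neutrophil and macrophage sums. Fgg did not pass the filter, and Saa3 was not matched by name and is not analysed here.

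Of the secreted targets, 6 of the 9 tested were higher and 0 lower, against 13.2% and 19.0% of all genes tested. Il6, Cxcl2 and Ccl3, all among the 6, had at most 10 reads in any young heart. They passed the filter on low counts through the aged hearts, so a call of lower was hardly open to them. Cxcl2, a chemokine that attracts neutrophils, had 2, 5 and 8 reads in WT3, WT13 and WT15 and 627, 88 and 443 reads in OT3, OT4 and OT7 (log2 fold change 5.68, SE 0.85, edgeR adjusted p = 0.0916), and its rise held whichever heart was left out. Il1b and Il6 were among the 6 and are named after their values were seen. Il1b, an inflammatory cytokine, measured 1.94, 0.763 and 6.90 CPM in the young and 62.5, 24.8 and 52.8 CPM in the aged donor hearts. Il6 had 0, 0 and 10 reads in the young and 94, 26 and 213 reads in the aged donor hearts. Tnf, Il12b and Ifnb1, classical targets of these receptors, did not pass the filter: Tnf had 0, 0 and 2 reads in the young and 2, 1 and 1 in the aged libraries, and Ifnb1 had 0 reads in all 6.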

How the data were processed

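Gene expression was measured by RNA-Seq of polyadenylated RNA from 6 transplanted hearts. The authors deposited 1 table of raw read counts and FPKM values per gene and heart. The submitters' processing notes name HISAT2 2.0.5, StringTie 1.3.3b, featureCounts 1.5.0-p3, DESeq2 1.16.1, GATK 3.7 and Rnor_6.0, without order or role, and the use of strand is not given in the sources used here. No other gene of the table overlaps a member. The deposited FPKM values were recomputed from counts, length and library totals, and 1 of 133500 differed by more than 0.1%, in no member.

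From these counts, fold changes were fitted with edgeR 4.0.16 in R 4.3.3 (filterByExpr, TMM, quasi-likelihood test, no covariates), with limma 3.58.1 and DESeq2 1.42.0 as alternatives. Standard errors were taken as the absolute log2 fold change over the square root of the F statistic. Adjusted p-values are Benjamini-Hochberg over all 13784 genes tested. Exact permutation tests, two-sided, used log2 CPM with a prior count of 2, and for the ratios to pan-leukocyte genes the log2 ratio with no prior count. TMM factors ranged from 0.733 (WT13) to 1.24 (OT3). Statistical steps were tested on simulated data with the same spread for all genes and no heart set apart. That test thus does not cover libraries such as WT15 and OT3. The promoter sequences were matched by symbol for 9 members, in 10 windows, and are from RefSeq (GRCr8), a build other than that of the counts.

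The members and lists were chosen with earlier results of these data known. The pathway genes named by rule are those with the largest rise and fall past the limits in each role, and the genes that did not pass the filter. Tlr1, Tlr6, Irak2, Irak4, Il1b, Il6 and Ccl3 were named outside that rule after their values were seen. All of these were higher in aged donor hearts, so they do not represent their roles. Irak1, which was not past the limits, was also named outside the rule, beside Irak2 and Irak4. Other settings tried were library scaling, filters, tests, limits, the prior count and leaving out each heart.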

Additional observations from a re-analysis of the deposited data

How the results depend on the processing

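With limma-voom with quality weights, 7504 genes, 7 members and 43 pathway genes were past the limits, against 4436, 4 and 24 with edgeR's quasi-likelihood test. With DESeq2's test 5360 genes and 7 members were. With an adjusted p under 0.05 in place of the unadjusted one, edgeR left 0 genes, 0 members and 0 pathway genes. Leaving out each heart in turn gave 2432 (without WT3) to 7214 (without WT15) genes, 2 to 7 members (2 without WT3, WT13 or OT3, 7 without WT15) and 11 (without OT7) to 45 (without WT15) pathway genes, of which 12 without WT3, 14 without WT13 and 13 without OT3. With library totals in place of TMM, 3147 genes were higher and 1441 lower, against 1815 and 2621, and 3 members were past the limits, Tlr3 no longer among them. Tlr9 turned sign with library totals (0.35), and ranged from -0.44 to 0.27 over the hearts left out; Tirap turned sign with limma-voom (-0.094), and ranged from -0.072 to 0.129 over the hearts left out. The cause of these changes was not tested. The direction of the other 7 members was the same under every setting tried. With 8 to 40 reads a library, depth limits what can be said of Tlr9. No paired analysis was made, since the hearts were from separate donors and the labels tie no young heart to an aged one.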
